A study of Mus musculus with 12 samples.

Results

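Transcripts of 45 genes for DNA replication and nucleotide synthesis were followed through 4 treatments of mouse CD4+ T cells. The genes were chosen by name, as the rows of the deposited expression table whose symbol is on a list of factors for origin licensing, the replication fork and the supply of deoxynucleotides (dNTPs). All 45 were found among the 45777 genes listed, and all 45 passed the filter on low values that left 15197 genes to be tested. The cells came from the spleens of wild type C57BL/6 mice, given as 7 weeks old in the labels (the study's methods give an older age for its mice), and were taken up with magnetic beads against CD4, a step that leaves some other spleen cells behind. Every culture received anti-CD3 at 0.5 µg/ml for 3 days, which engages the T cell receptor, and the study's methods also list soluble anti-CD28. The Control cultures received no drug, another group metformin, another FK506 (tacrolimus, which blocks calcineurin signalling downstream of the T cell receptor) and the last one Metformin+FK506, with 3 samples in each group. The drug doses of these cultures are not given in the sources used here. The labels do not say whether the samples of a group came from separate mice or cultures, so the p-values measure the spread between these samples, which may be technical.

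A resting T cell has little need to copy its DNA and builds the replication machinery when it is called into division. In the phase before DNA synthesis, the origin recognition complex, Cdc6 and Cdt1 load the ring of Mcm proteins onto origins, and Cdc45 and the GINS complex later turn that ring into an active helicase. Primase and the DNA polymerases then copy the strands, the clamp Pcna and its loader keep the polymerases on the template, RPA coats single-stranded DNA, and ribonucleotide reductase, thymidylate synthase and thymidine kinase supply the dNTPs. Many of these genes are transcribed together under E2F factors, which are released when cyclin-dependent kinases inactivate the retinoblastoma proteins.

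Between 43402632 and 64290105 reads were counted per sample, and no member fell below 65 reads in any sample. Replicates differed by more than counting noise (chi-square over its degrees of freedom 4.31 to 17.6), and all 12 samples were used. Levels below are FPKM (fragments per kilobase of transcript, adjusted for library size). Differences are log2 fold changes of read counts, scaled by TMM and tested with edgeR's quasi-likelihood test in 1 fit of the 4 groups, and a gene is said to rise or fall where its p-value, adjusted by the Benjamini-Hochberg method over the 15197 genes, was under 0.05. The 12 T cell markers checked, Cd3e and Cd4 among them, were present in every group. Their summed level was 2698 to 2748 FPKM in Control and 2540 to 2685 with FK506. One by one, 7 of the 12 fell with FK506 and 5 rose, with log2 fold changes from -1.64 to 0.66 and a median of -0.34. All 10 B cell markers rose with FK506, their summed level going from between 62.87 and 66.88 FPKM in Control to between 885.6 and 925.5, with 87.17 to 101.8 in the metformin samples and 427.1 to 458.2 with both drugs. All 10 myeloid markers rose as well, from sums of 4.404 to 4.574 FPKM in Control to 1319 to 1368 with FK506 and 886.7 to 1007 with both drugs, and C1qa, C1qb, C1qc and Csf1r had 3 counts or fewer in each Control and metformin sample. Lyz2 made up most of the myeloid sum, with a mean of 981 FPKM with FK506 and 539 with both drugs. Between these groups 3 myeloid markers were higher and 1, Lyz2, was lower with both drugs, with a list median of 0.13, whereas all 10 B cell markers were lower, with a median of -0.99. The pair of CD8 T cell markers summed to 9.005 to 9.521 FPKM in Control, 12.89 to 13.18 with metformin, 6.839 to 7.345 with FK506 and 6.933 to 8.638 with both drugs. The erythroid markers summed to 84.69 to 95.83 FPKM in Control and to 23.29 to 26.07 in the other groups, nearly all of it Tfrc, the transferrin receptor that dividing T cells also use, with a mean of 89.5 FPKM in Control and 22.2 with FK506. Of the 4 erythroid markers tested, 2 were higher with FK506, the globins Hbb-bs and Hbb-bt, and 2 were lower. The marker sums thus differed between the groups compared below, and their part in the results was not tested. In such bulk samples fewer cells of a type and less RNA per cell cannot be told apart.

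FK506 lowered nearly the whole replication programme. Relative to Control, 43 of the 45 genes fell, beside 39.6% of all genes tested, and 2 rose (Gins3 and Rpa1), beside 41.3%. The median log2 fold change of the members was -1.39, which is 0.381 times the Control level, while the median of all genes was 0.02. At least 1 log2 unit was lost by 32 of the members, against 16.7% of all genes. The FPKM values of the FK506 samples lay wholly below those of Control for 42 members (32.9% of all genes). The 45 genes together took 0.403% ± 0.00623 (SD, n = 3) of the reads in Control and 0.212% ± 0.00174 with FK506. Libraries were also scaled to the T cell markers, of which 7 fell and 5 rose with FK506. The members' median was then -1.06 and that of all genes 0.36, and 66.9% of the genes called were higher instead of 51.1%.

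Metformin alone gave smaller falls in most of the same machinery. It lowered 32 of the 45 genes, beside 27.4% of all genes, and raised 0, beside 28.6% of all genes. At an unadjusted p under 0.05 the members raised were also 0, and DESeq2 raised 0 too. The median was -0.30, or 0.814 times Control, and 31 members had metformin samples wholly below Control (29.0% of all genes). Of the 32 falls, those of Mcm4, Mcm5, Rfc1 and Rpa3 were lost and that of Mcm6 turned in a limma fit of quantile-normalized FPKM. The 13 genes that did not pass had log2 fold changes between -0.28 and 0.10. Only Orc1 fell by at least 1 log2 unit, where 5.65% of all genes did. The members' share of reads was 0.331% ± 0.00560 with metformin.

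With both drugs the levels were the lowest for most members. Against Control, Metformin+FK506 lowered 43 genes (39.6% of all genes) and raised the same pair, Gins3 and Rpa1 (42.1% of all genes were higher), with a median of -1.74 and 34 members down by at least 1 log2 unit (17.3% of all genes). Against metformin alone it lowered 43 (37.9% of all genes) and raised 2 (40.3%), with a median of -1.36. Adding metformin to FK506 lowered 30 members, beside 15.0% of all genes, and raised Rnaseh2a, beside 15.6%, with a median of -0.33. This background depended on the scaling. Scaled to the T cell markers, 4214 of all genes were lower and 1286 higher, instead of 2286 and 2374, with a median of -0.10. In the main fit the other 14 members lay between -0.26 and 0.17. The samples with both drugs were wholly below the FK506 samples for 33 members (22.2% of all genes), and Orc1 was the only member that lost a further log2 unit (2.30% of all genes). The share of reads in the members came to 0.178% ± 0.00110.

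Ordered by level, 22 of the 45 genes had 4 groups that did not overlap, with Control highest, then metformin, then FK506, then Metformin+FK506. This full order was found in 2.57% of all genes tested. The group means followed it for 33 members (9.93% of all genes), and the mean was lowest with both drugs for 41 (21.9% of all genes). The exceptions to the last count were Gins3, Pold2, Rpa1 and Rnaseh2a. The heat map of the 45 genes shows each sample against the Control mean.

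**Figure D1:**
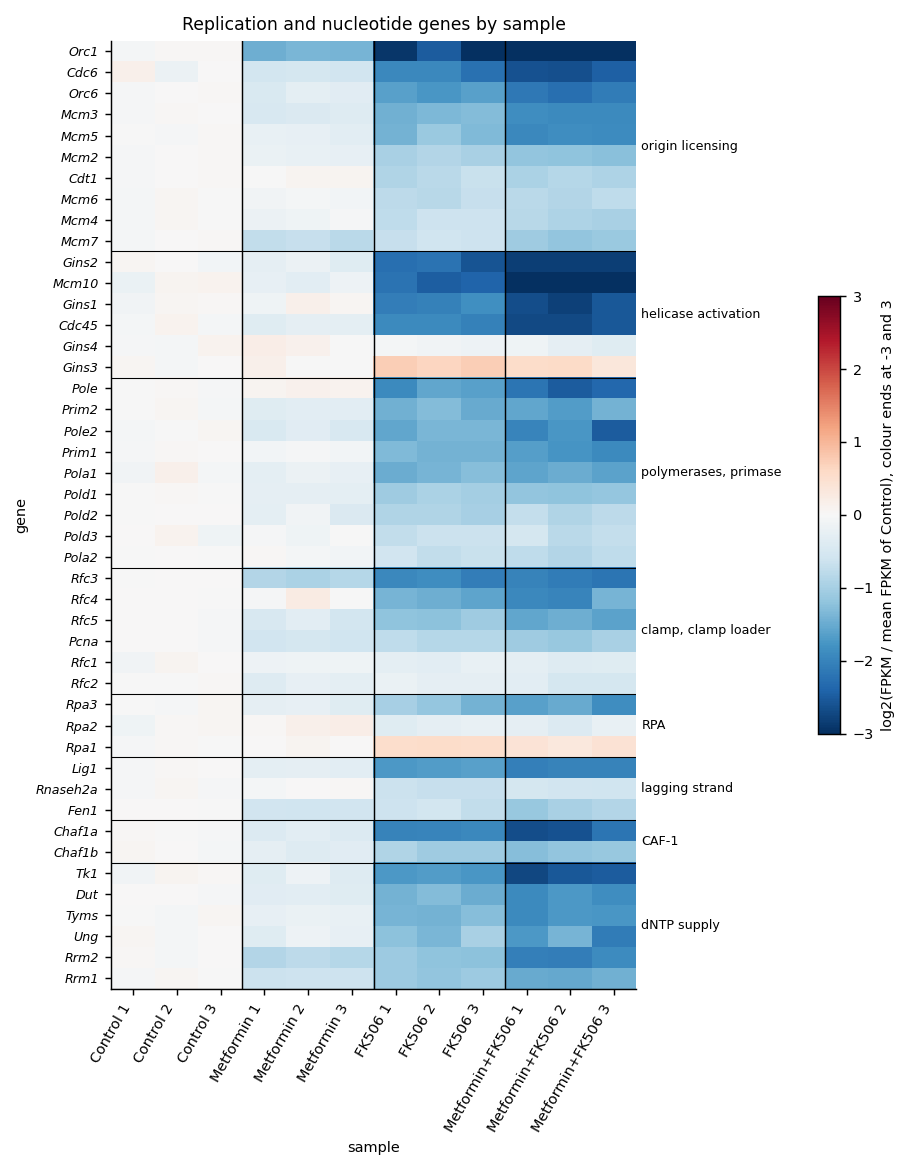
Each row is a gene, grouped by role, and each column a sample; colour gives log2 of the FPKM over the Control mean, with the colour scale ending at -3 and 3. Most rows darken to blue from Control through metformin and FK506 to Metformin+FK506, while Gins3 and Rpa1 are red in the FK506 columns.

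The promoters of the members were searched for the letters of the classical E2F site. The windows run from 250 bases before to 50 bases after the RefSeq transcription start (build GRCm38.p6, the assembly behind mm10), and 38 of the 45 members had at least 1, for 43 windows in all. The letters TTTCCCGC, TTTCGCGC, TTTGCCGC and TTTGGCGC were searched on both strands. At least 1 of them was found for 14 of the 38 members (36.8%), against 704 of 27025 genes in the whole table (2.60%). The members were listed by name, so this share does not depend on the drug responses. Among lists described below it was 31.6% for regulators of S phase entry and 26.1% for other replication factors. For other nucleotide synthesis genes it was 7.69% and for mitosis genes 5.88%. Within the members the letters were most common among the licensing genes, in 7 of 9, and in the polymerase and primase genes, in 4 of 7. None of the 6 dNTP supply genes with a window held them, nor did the RPA or CAF-1 genes. The median change with FK506 was -1.55 for the 14 genes with the letters and -1.39 for the 24 without. With metformin these medians were -0.312 and -0.316. A match describes the letters and is not a bound site. Only exact copies of these words were searched, so a window without them may still hold an E2F site.

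The windows of 5 members are printed here from the RefSeq table because these genes with and without the letters include both those that fell and those that rose, each on the strand of its gene with the matched letters in capitals. Orc1 (chr4:108579204-108579503, plus strand) and Rfc3 (chr5:151651159-151651458, minus strand) fell most with metformin and hold the letters, from 27 to 20 bases before the start in Orc1 and from 10 to 3 bases before and at 0 to 7 bases after it in Rfc3. Gins3 (chr8:95633309-95633608, plus strand) holds them from 41 to 34 bases before the start and rose with FK506. Rpa1 (chr11:75348334-75348633, minus strand) also rose and has none. Rrm2 (chr12:24708004-24708303, plus strand) fell with each drug and has none.
Orc1: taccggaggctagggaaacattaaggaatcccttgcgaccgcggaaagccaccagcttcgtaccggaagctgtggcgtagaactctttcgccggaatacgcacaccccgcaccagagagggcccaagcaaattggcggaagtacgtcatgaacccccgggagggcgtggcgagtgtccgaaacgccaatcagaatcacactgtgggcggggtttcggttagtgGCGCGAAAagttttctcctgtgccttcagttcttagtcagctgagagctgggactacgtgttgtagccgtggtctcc
Rfc3: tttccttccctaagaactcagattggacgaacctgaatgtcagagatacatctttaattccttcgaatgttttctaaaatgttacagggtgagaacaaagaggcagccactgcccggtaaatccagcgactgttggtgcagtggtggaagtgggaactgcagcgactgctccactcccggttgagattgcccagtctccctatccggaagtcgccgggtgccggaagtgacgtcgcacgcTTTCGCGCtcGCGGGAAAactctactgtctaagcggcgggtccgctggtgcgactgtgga
Gins3: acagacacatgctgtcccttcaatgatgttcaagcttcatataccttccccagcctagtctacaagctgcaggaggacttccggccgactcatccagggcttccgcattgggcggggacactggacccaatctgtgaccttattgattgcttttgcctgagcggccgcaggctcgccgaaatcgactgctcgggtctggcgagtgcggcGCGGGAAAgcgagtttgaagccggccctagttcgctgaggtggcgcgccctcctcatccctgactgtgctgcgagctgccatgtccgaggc
Rpa1: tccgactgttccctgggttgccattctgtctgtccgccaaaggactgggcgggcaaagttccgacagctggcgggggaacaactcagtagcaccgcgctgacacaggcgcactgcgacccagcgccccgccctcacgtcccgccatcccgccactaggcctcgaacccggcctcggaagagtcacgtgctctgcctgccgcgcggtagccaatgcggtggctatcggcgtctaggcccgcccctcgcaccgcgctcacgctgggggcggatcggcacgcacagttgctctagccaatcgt
Rrm2: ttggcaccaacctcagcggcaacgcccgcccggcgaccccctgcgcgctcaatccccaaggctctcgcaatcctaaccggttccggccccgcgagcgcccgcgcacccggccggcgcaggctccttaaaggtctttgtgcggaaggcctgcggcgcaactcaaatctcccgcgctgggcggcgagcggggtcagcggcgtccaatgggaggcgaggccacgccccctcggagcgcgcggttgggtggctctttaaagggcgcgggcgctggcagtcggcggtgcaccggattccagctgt

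Origin licensing held the steepest single response. All 10 licensing genes fell with FK506, 9 fell with metformin, and 8 fell further when metformin was added to FK506. Orc1, the large ATP-binding subunit of the origin recognition complex, measured 7.94, 8.45 and 8.54 FPKM in Control, 3.03, 3.24 and 3.19 with metformin, 1.09, 1.47 and 0.724 with FK506 and 0.147, 0.582 and 0.248 with both drugs. No groups overlapped, the samples with both drugs were lowest, and no sample had fewer than 65 reads of Orc1. The gene shares 360 exon bases with Gm12743 on the opposite strand. The log2 fold changes of Orc1 were -2.96 ± 0.144 (SE, adjusted p = 8.67e-12) with FK506, -1.44 ± 0.133 (adjusted p = 1.30e-07) with metformin and -4.17 ± 0.159 (adjusted p = 3.32e-13) with both.

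Within the origin recognition complex the loss was uneven. Orc6, the small subunit, fell by 1.89 with FK506 and by 0.39 with metformin. The 4 remaining subunits, which were not members, fell less with FK506, with log2 fold changes of -0.35 for Orc2, -0.59 for Orc3, -0.51 for Orc4 and -0.76 for Orc5. With metformin Orc2, Orc3 and Orc5 did not pass the test and Orc4 rose by 0.44 (adjusted p = 5.44e-06).

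Among the loaders, Cdc6, an ATPase that recruits the Mcm ring, fell by 2.15 with FK506 and by 0.49 with metformin. Its partner Cdt1, whose protein is destroyed in S phase, fell by 1.01 with FK506 (adjusted p = 2.59e-10) but had a log2 fold change of 0.02 with metformin (95% interval -0.10 to 0.14), which did not pass the test. Adding metformin to FK506 gave Cdt1 -0.08 (adjusted p = 0.365).

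The Mcm subunits, which sit in the ring in equal numbers, did not change equally. Mcm6 had the highest mean level of the licensing genes, at 83.9, 90.8 and 85.8 FPKM in Control, 80.1, 83.5 and 82.7 with metformin, 50.8, 48.4 and 54.1 with FK506 and 49.96, 46.9 and 51.2 with both. The metformin samples of Mcm6 lay just below Control, and the FK506 and combined samples overlapped. Its changes were -0.95 ± 0.0398 with FK506 and -0.12 ± 0.0393 (adjusted p = 0.0185) with metformin. The metformin fall of Mcm6 was lost when Control replicate 2 or Metformin replicate 1 was left out (adjusted p = 0.105 and 0.0690) and in limma fits of FPKM, and it turned to 0.051 after quantile normalization. That of Mcm4 (-0.14) was likewise lost in the limma fits and when Control replicate 2 or 3 or Metformin replicate 1 or 2 was left out (adjusted p = 0.0607 to 0.129). Mcm3 and Mcm5 fell most in the ring with FK506, by 1.58 and 1.51, while Mcm2 fell by 1.16, Mcm4 by 0.88 and Mcm7 by 0.84.

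Mcm7 stood out for its response to metformin. Its FPKM values were 51.8, 54.5 and 54.8 in Control, 32.2, 33.5 and 30.7 with metformin, 33.2, 35.6 and 34.9 with FK506 and 25.7, 23.6 and 24.9 with both. Metformin and FK506 samples of Mcm7 overlapped, which among the members was also seen in Rfc2 and Fen1. The log2 fold change with metformin was -0.77 ± 0.0440 (adjusted p = 3.36e-10), against -0.12 to -0.45 for the other 5 Mcm subunits of the ring. Mcm7 shares 321 exon bases with Ap4m1 on the opposite strand, and its intron is known to host a microRNA cluster.

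Helicase activation had the lowest median of the roles with FK506 and also 1 of the genes that rose. Of the 6 genes, 5 fell with FK506 and the median was -2.16, while metformin lowered 3. Mcm10, which helps start unwinding, fell by 2.40 with FK506 and by 3.21 with both drugs. Cdc45, the helicase cofactor, fell by 2.14 with FK506, by 0.33 with metformin and by 2.84 with both.

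The GINS complex, a ring of 4 subunits made by Gins1 to Gins4, split in a plain way. Gins1 measured 10.6, 11.8 and 11.7 FPKM in Control and 2.70, 2.77 and 3.19 with FK506, and Gins2 measured 29.9, 29.1 and 27.2 in Control and 6.02, 6.24 and 4.79 with FK506. Both sat far below Control in every FK506 sample, with log2 fold changes of -2.19 ± 0.114 and -2.54 ± 0.0929. Gins3 went the other way, at 5.69, 5.22 and 5.54 FPKM in Control, 6.05, 5.42 and 5.41 with metformin, 9.09, 8.62 and 9.16 with FK506 and 8.08, 8.19 and 6.98 with both. Every sample with FK506 was above every sample without it. The rise was 0.49 ± 0.0814 (adjusted p = 3.47e-05) with FK506 and 0.31 ± 0.0817 (adjusted p = 0.00233) with both drugs.

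Gins4 barely moved. It measured 18.5, 18.1 and 20.3 FPKM in Control, 21.7, 20.7 and 18.8 with metformin, 18.2, 17.7 and 17.1 with FK506 and 17.2, 15.7 and 14.8 with both. The samples of Gins4 with both drugs lay wholly below those of Control and metformin, and the gene fell in both of these comparisons. The FK506 and Control samples overlapped in FPKM, the only such member. On scaled counts Gins4 fell by 0.32 with FK506 (adjusted p = 0.000675), and scaled to the T cell markers it was 0.02, so its direction depended on the scaling. In limma fits of log2(FPKM + 1) and log2(FPKM + 0.1) the FK506 fall did not pass (adjusted p = 0.191 and 0.193). Scaling to the T cell markers left the FK506 falls of Rfc2 and Rpa2 past no threshold (adjusted p = 0.0533 and 0.0541) and kept the other 40 falls. The plot of complexes by sample shows the 4 GINS genes side by side.

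**Figure D2:**
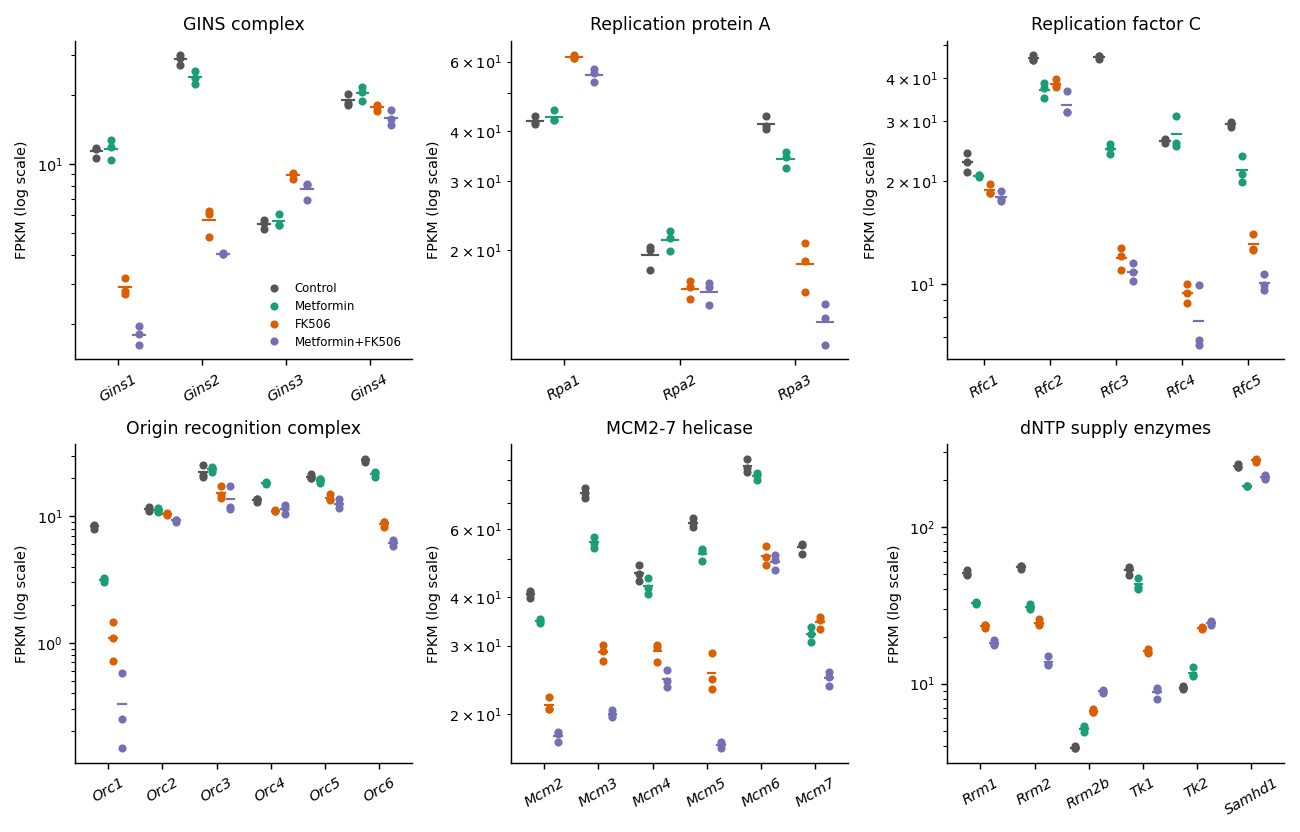
FPKM on a log axis for the subunits of 5 complexes and for dNTP supply enzymes, with 1 point per sample and a bar at the mean of each group. Gins3 and Rpa1 are higher in the FK506 groups while the other subunits of their complexes are level or lower, and Rrm2b and Tk2 are higher with FK506 where Rrm2 and Tk1 are lower.

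The polymerases and primase fell together with FK506 and less evenly with metformin. All 9 genes fell with FK506, with a median of -1.59, and 5 fell with metformin. Pold1, the catalytic subunit of polymerase delta, had the highest mean level of the set, at 42.4, 44.2 and 42.4 FPKM in Control, 35.5, 35.9 and 35.1 with metformin, 20.5, 22.1 and 21.3 with FK506 and 19.0, 18.6 and 19.3 with both. The 4 groups of Pold1 were apart and in the common order. Its fall was 1.22 ± 0.0352 with FK506 (adjusted p = 8.58e-15) and 0.30 ± 0.0344 with metformin.

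Pole, the catalytic subunit of the leading strand polymerase epsilon, kept its level with metformin alone and lost it with FK506. Its FPKM values were 13.1, 13.4 and 12.9 in Control, 14.0, 14.3 and 14.2 with metformin, 3.47, 4.43 and 4.24 with FK506 and 2.89, 2.33 and 2.58 with both. The metformin samples were slightly above Control, but the change of 0.08 ± 0.0703 did not pass the test (adjusted p = 0.365). FK506 lowered Pole by 1.92, and metformin on top of FK506 lowered it by a further 0.62 ± 0.0794 (adjusted p = 2.04e-05). Its accessory subunit Pole2 fell by 1.63 with FK506 and by 0.45 with metformin.

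The primase and polymerase alpha genes, which lay down the RNA-DNA primer, fell by 0.88 (Pola2) to 1.63 (Prim2) with FK506. With metformin Prim2 fell by 0.36 and Pola1 by 0.27, whereas Prim1 at -0.10 and Pola2 at -0.07 did not pass. The accessory subunits of polymerase delta fell with FK506, Pold2 by 1.15 and Pold3 by 0.93. Pold2 measured 15.8, 15.9 and 14.9 FPKM with FK506 and 18.2, 15.9 and 17.4 with both drugs, so adding metformin gave a slightly higher level, but the difference of 0.17 did not pass (adjusted p = 0.0952).

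Among the clamp and its loader, all 6 genes fell with FK506 and 5 with metformin. Pcna, the sliding clamp, was the most abundant member, at 202, 203 and 197 FPKM in Control, 136, 139 and 133 with metformin, 118, 111 and 112 with FK506 and 95.2, 91.7 and 102 with both. Its groups were apart in the common order. Pcna fell by 1.04 ± 0.0379 with FK506 (adjusted p = 1.80e-13) and by 0.59 ± 0.0376 with metformin (adjusted p = 1.28e-09). A listed pseudogene of it, Pcna-ps2, had 219 to 749 reads, so some reads may be shared.

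Replication factor C, the loader of Pcna, has a large subunit, Rfc1, and 4 small ones that also serve in other loaders. Rfc1 and Rfc2 fell little with FK506, by 0.49 and 0.46, while Rfc3, Rfc4 and Rfc5 fell by 2.18, 1.69 and 1.38. Rfc3 measured 45.7, 46.5 and 46.6 FPKM in Control, 25.1, 24.1 and 25.6 with metformin, 12.1, 12.8 and 11.0 with FK506 and 11.5, 10.8 and 10.2 with both. The metformin samples of Rfc3 lay between Control and FK506, and the samples with both drugs overlapped those with FK506 alone. Its change was -0.94 ± 0.0584 (adjusted p = 1.03e-09) with metformin alone and -0.12 ± 0.0640 (adjusted p = 0.178) on top of FK506. Rfc4, by contrast, had 0.03 with metformin (adjusted p = 0.828).

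The Rfc2 values carry a limit of their own. Rfc2 shares 952 exon bases with Lat2, an adaptor gene of B and myeloid cells on the opposite strand, and the sources used here do not state whether strand was used in counting. Lat2 rose from between 3.34 and 3.69 FPKM in Control to between 21.5 and 28.5 with FK506, and its part in the reads of Rfc2 was not tested. In all, 16 of the 45 members share exon bases with another gene in the GENCODE vM21 annotation, the longest stretches being 2758 bases of Gins2 with Gse1, 1908 of Fen1 with Gm10143 and 1862 of Chaf1a with Ubxn6.

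RPA, the single-strand binding complex, had 1 subunit that rose and 2 that fell with FK506. Rpa1, its large DNA-binding subunit, measured 41.9, 43.6 and 42.2 FPKM in Control, 42.6, 45.2 and 42.8 with metformin, 61.3, 62.3 and 61.4 with FK506 and 56.2, 53.1 and 57.5 with both. Samples with FK506 were all above samples without it, and Control and metformin overlapped. Rpa1 rose by 0.32 ± 0.0348 with FK506 (adjusted p = 2.37e-07) and by 0.20 ± 0.0348 with both, and metformin alone left it at 0.00 (adjusted p = 0.969, 95% interval -0.07 to 0.07). Rpa2, the subunit phosphorylated under replication stress, fell by 0.50 with FK506, and the small subunit Rpa3 fell by 1.39. With metformin Rpa3 fell by 0.33 and Rpa2 had 0.10 (adjusted p = 0.231).

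Lagging strand processing fell throughout with FK506. Lig1, the ligase that joins Okazaki fragments, measured 49.7, 52.4 and 51.2 FPKM in Control, 41.4, 42.3 and 41.1 with metformin, 15.4, 16.1 and 16.5 with FK506 and 12.3, 12.7 and 12.7 with both. Its groups were apart, and the log2 fold change of -1.89 ± 0.0392 with FK506 had the smallest adjusted p of the members in that comparison (1.43e-16). Fen1, the nuclease that trims their flaps, fell by 0.85 with FK506 and by 0.60 with metformin, so that the metformin samples, at 14.5, 14.2 and 14.6 FPKM, overlapped the FK506 samples, at 14.1, 14.8 and 12.9.

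Rnaseh2a, the catalytic subunit of the enzyme that removes ribonucleotides from DNA, was the member raised by metformin on top of FK506. It measured 17.8, 18.9 and 17.5 FPKM in Control, 17.4, 18.2 and 18.6 with metformin, 11.5, 11.1 and 11.3 with FK506 and 12.6, 12.1 and 11.9 with both. The samples with both drugs lay just above the FK506 samples. The rise of 0.16 ± 0.0579 had an adjusted p of 0.0474 and was lost in 19 of 22 alternative fits, among them DESeq2 (adjusted p = 0.0670), 11 of the 12 fits that left out a sample, and scaling to the T cell markers (0.06, adjusted p = 0.466).

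CAF-1, which places histones on new DNA, lost both subunits measured. Chaf1a, its large subunit, went from 23.6, 22.7 and 22.3 FPKM in Control to 17.2, 18.3 and 17.2 with metformin, 5.73, 5.79 and 5.99 with FK506 and 3.60, 3.74 and 5.02 with both. The groups did not overlap, and the fall was 2.19 ± 0.0816 with FK506 and 0.41 ± 0.0760 with metformin. Chaf1b fell by 1.22 with FK506 and by 0.36 with metformin.

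The dNTP supply genes moved as a block with FK506. All 6 fell by between 1.34 and 1.92, the narrowest range among the roles of at least 3 genes, and all 6 fell further when metformin was added to FK506. Of these further falls, that of Ung (-0.49) was lost with only the compared groups in the fit (adjusted p = 0.0666) and when FK506 replicate 3 or Metformin+FK506 replicate 1 or 3 was left out, its value being -0.34 without the last of these. Rrm1, the large subunit of ribonucleotide reductase, measured 49.6, 53.1 and 50.3 FPKM in Control, 32.5, 33.0 and 33.0 with metformin, 23.8, 22.6 and 23.8 with FK506 and 17.9, 17.7 and 18.9 with both. Its small subunit Rrm2 measured 56.6, 53.6 and 56.2 in Control, 29.9, 32.5 and 30.6 with metformin, 25.9, 23.9 and 23.8 with FK506 and 13.3, 13.2 and 15.0 with both.

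Both subunits fell with each drug on its own, and by more with FK506. Rrm2 fell by 0.87 with metformin (adjusted p = 3.59e-10) and by 1.39 ± 0.0507 with FK506 (adjusted p = 1.82e-13), and Rrm1 fell by 0.67 ± 0.0380 (adjusted p = 3.29e-10) and 1.34 ± 0.0386. Metformin lowered Rrm2 again by 0.81 on top of FK506 (adjusted p = 1.25e-08), the smallest adjusted p of the members in that comparison.

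Tk1, the thymidine salvage kinase of dividing cells, measured 49.2, 55.9 and 54.1 FPKM in Control, 41.5, 47.6 and 40.5 with metformin, 15.9, 16.5 and 15.7 with FK506 and 7.96, 9.13 and 9.39 with both. The combined samples were well below those with FK506 alone. The metformin change was -0.40 ± 0.0748 without FK506 and -0.90 ± 0.0860 with it. Tyms, which makes thymidylate, fell by 1.41 with FK506 and by 0.27 with metformin. Dut, which destroys dUTP, fell by 1.62 and 0.37. Ung, which cuts out uracil from DNA, fell by 1.41 with FK506, and its -0.28 with metformin did not pass (adjusted p = 0.0919) although the metformin samples lay below Control. The plot of changes by drug gives all 45 genes with their errors.

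**Figure D3:**
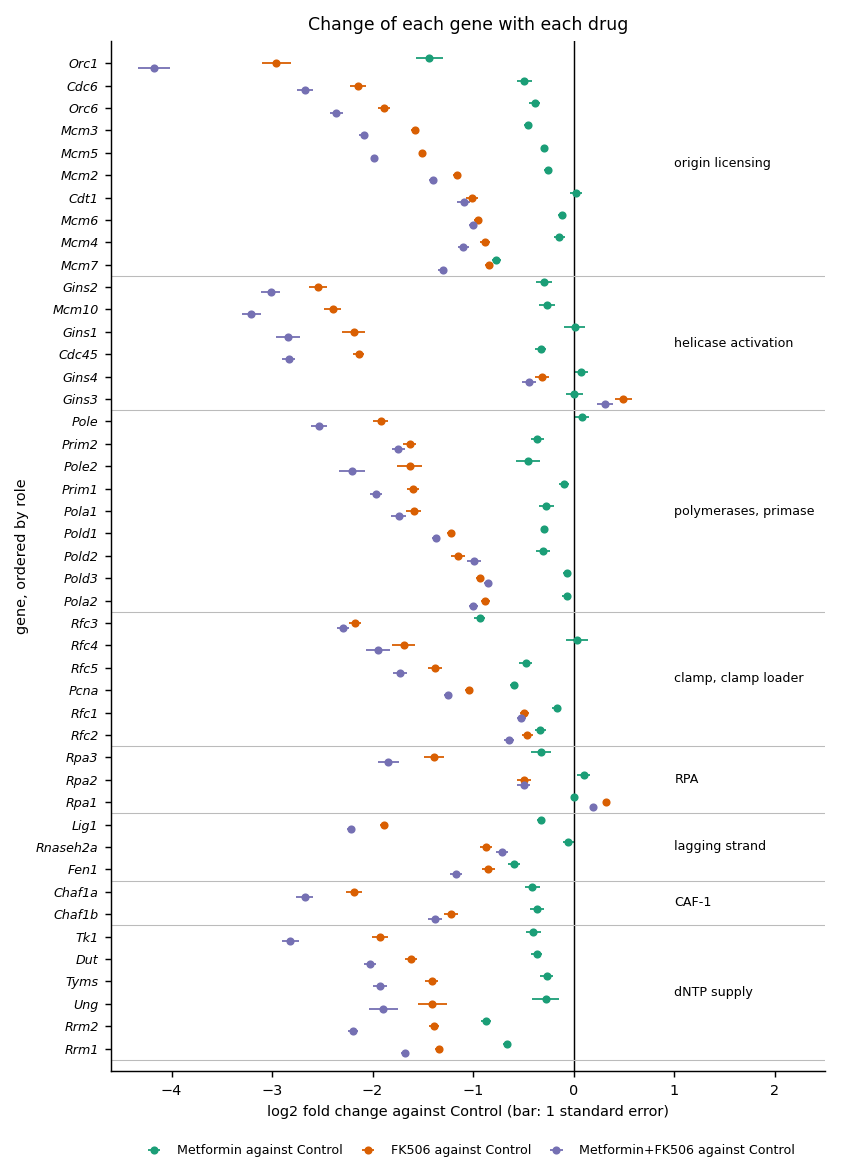
Log2 fold change against Control on the horizontal axis for each gene, ordered by role, with bars of 1 standard error; colours mark metformin, FK506 and Metformin+FK506. The metformin points lie between -1.44 and 0.10, the FK506 points between -2.96 and 0.49, and the Metformin+FK506 points between -4.17 and 0.31.

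An interaction term tested whether the metformin change depended on FK506. The difference passed the test for 17 of the 45 members, in 9 toward a higher value with FK506 present (22.5% of all genes) and in 8 toward a lower one (24.0% of all genes), shares near those of the background. The median difference was -0.05 log2 units, beside -0.02 for all genes. The metformin effect without FK506 and that with FK506, which share no samples, had a Pearson r of 0.51 across the 45 genes, a description over genes that share libraries. Metformin lowered 25 members in both settings (5.68% of all genes), 7 only in the comparison without FK506 (21.7%), 5 only in the comparison with it (9.36%) and 8 in neither (63.3%).

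Rfc3 had the largest positive difference, 0.82 ± 0.0865 (adjusted p = 9.97e-07), with a metformin fall that passed the test without FK506 and not with it. Pcna (0.38), Rrm1 (0.33) and Mcm7 (0.31) also fell less with metformin once FK506 was there, and Pold2 (0.47) fell with metformin alone while its change on top of FK506, 0.17, did not pass. The calls of Prim2, Rnaseh2a, Rpa1, Pold1 and Fen1 were the 5 interaction calls lost in some alternative fits, in 15, 15, 10, 9 and 5 of 21. Pole had the largest negative difference, -0.69 ± 0.106 (adjusted p = 5.28e-05), followed by Gins1 (-0.67) and Mcm10 (-0.54). Gins1 had 0.01 with metformin alone (adjusted p = 0.966) and -0.66 on top of FK506 (adjusted p = 0.000823). For Orc1 the metformin falls of 1.44 and 1.21 gave a difference of 0.22 that did not pass (adjusted p = 0.427, 95% interval -0.20 to 0.64).

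**Figure D4:**
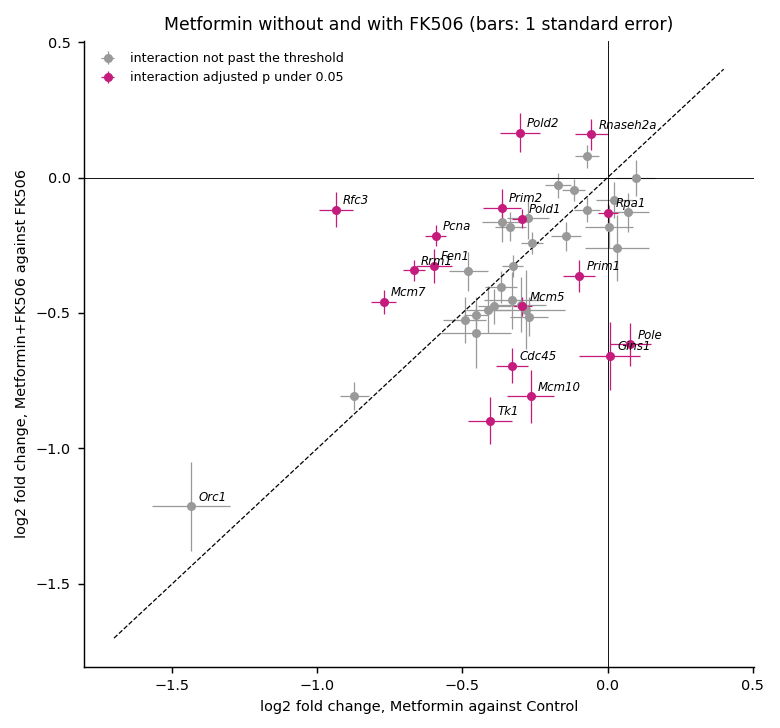
Each point is a gene, with its metformin effect without FK506 on the horizontal axis and with FK506 on the vertical axis, both as log2 fold changes with bars of 1 standard error; the dashed line marks equal effects. The 17 coloured genes passed the interaction test, Rfc3 (0.82) lying above the line and Pole (-0.69) below it.

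Genes of the same pathways outside the 45 gave a wider picture. The shares over all genes, to be read beside the lists that follow, were 39.6% lower and 41.3% higher with FK506. With metformin they were 27.4% lower and 28.6% higher. Of 30 other replication factors, 28 fell with FK506 and 2 rose, with a median of -1.12, and with metformin 15 fell and 6 rose, with a median of -0.15. Ticrr, which brings Cdc45 to origins, fell most with FK506, by 2.39. Donson, a replisome factor, and Top1, a topoisomerase, rose by 0.56 and 0.12. Metformin raised the helicase Recql4 by 0.73 (adjusted p = 1.21e-05) where FK506 lowered it by 1.68, and it lowered the nuclease Dna2 by 0.92. The other genes metformin raised were Orc4, Pold4, Dbf4, Mtbp and Donson.

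Of 30 other nucleotide synthesis genes, 25 fell with FK506, 4 rose and Samhd1, which degrades dNTPs, had -0.07 (adjusted p = 0.0541). The 4 that rose were Tk2, the mitochondrial thymidine kinase, Rrm2b, the ribonucleotide reductase subunit used outside S phase, Ctps2, a CTP synthase, and Dck, the deoxycytidine kinase. Rrm2b measured 3.87, 3.87 and 3.99 FPKM in Control, 5.23, 5.36 and 4.92 with metformin, 6.58, 6.63 and 6.84 with FK506 and 9.17, 8.98 and 8.72 with both, the reverse of the order in Rrm2. Rrm2b rose by 0.37 with metformin (adjusted p = 2.23e-05) and by 0.55 with FK506 (adjusted p = 7.78e-08). Tk2 likewise rose by 0.28 and 1.08 where Tk1 fell by 0.40 and 1.92.

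In the same list the mitochondrial folate enzyme Mthfd2 fell most with FK506, by 2.58, but rose by 0.58 with metformin (adjusted p = 7.21e-09), and the cytosolic serine enzyme Shmt1 fell by 1.00 with metformin. Metformin lowered 17 of these genes and raised 6, with Ctps2 highest at 0.62, and the others being Mthfd2, Shmt2, Rrm2b, Tk2 and Adss. The list medians were -0.91 with FK506 and -0.34 with metformin.

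Of 26 regulators of the entry into S phase, 21 fell with FK506 and 4 rose. E2f1, an activating E2F, fell by 1.64 with FK506 and by 0.48 with metformin, and Cdkn2d, an inhibitor of Cdk4 and Cdk6, fell most, by 2.59. Those that rose were the retinoblastoma family members Rb1 and Rbl2, by 0.25 and 1.17, the kinase inhibitor Cdkn1b, by 0.32, and Ccnd1. Ccnd1 was at or under 0.0696 FPKM in every Control sample and at 4.38, 4.46 and 4.52 with FK506. C1qa, C1qb, C1qc and Csf1r of the myeloid markers likewise had 3 counts or fewer in Control. The part of other spleen cells in the rise of Ccnd1 was not tested. Metformin lowered 17 and raised 4, cyclin Ccne2 falling most, by 1.38, and Tfdp2, an E2F partner, rising most, by 0.87, with Rbl2, E2f2 and Rb1 also higher.

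Genes of mitosis, the step after DNA synthesis, fell as well. All 20 fell with FK506, with a median of -1.84, Bub1 falling most, by 2.45, and 14 fell with metformin, with a median of -0.30 and Cdk1 falling most, by 0.89. Adding metformin to FK506 lowered all 20 (15.0% of all genes), with a median of -0.83, beside 30 of 45 and -0.33 for the replication genes. The interaction was negative and past the threshold for 18 of the 20, where it was so for 8 of the 45 replication genes, and this difference between the lists was not tested. Over all genes the interaction was past the threshold and higher for 22.5% and lower for 24.0%. The other replication factors had 4 of 30 higher and 10 lower (median -0.04). In 2 lists more genes were higher than lower. Of the 30 other nucleotide synthesis genes 15 were higher and 6 lower (median 0.22). Of the 26 regulators of S phase entry 12 were higher and 5 lower (median 0.20). The plot of lists by comparison sets these groups beside the members.

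**Figure D5:**
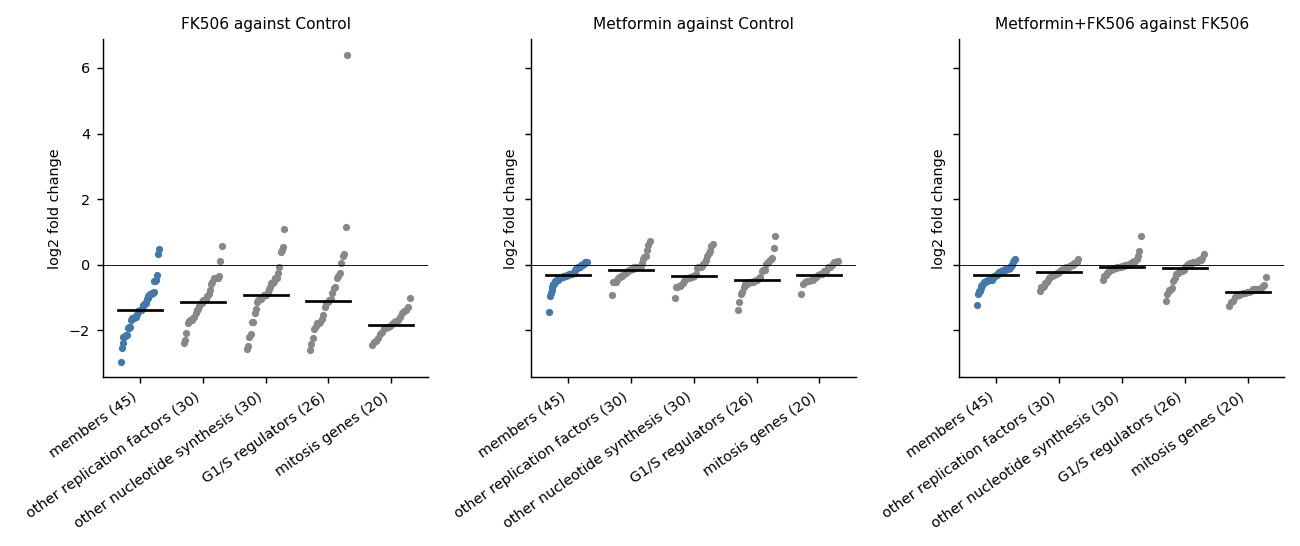
Log2 fold change of every gene of 5 lists, with a bar at the list median, in 3 panels for FK506 against Control, metformin against Control and Metformin+FK506 against FK506. With metformin on top of FK506 the mitosis genes have a median of -0.83 and the 45 members one of -0.33, while with metformin alone both medians are -0.30.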

How the data were processed

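Poly(A) RNA of 12 samples in 4 groups was sequenced by the authors, and the groups were taken from the sample labels. The authors deposited read counts per gene, not normalized, and FPKM values, which they scaled to library size and transcript length. Their processing notes list bcl2fastq 2.20.0, Trimmomatic, HISAT2 2.1.0, StringTie 2.1.3b and build mm10, without the role of each. The 12 deposited TPM columns were not used. From the counts, genes with an FPKM of at least 0.5 in 3 or more samples were kept, 15197 of 45777, with 18141 at 0 throughout. Counts were scaled by TMM and tested with edgeR 4.0.16 (R 4.3.3), quasi-likelihood, in 1 fit of the 4 groups with 8 residual degrees of freedom, for 6 comparisons, with Benjamini-Hochberg adjustment at 0.05. Total counts ran from 43402632 to 64290105, and counting error was smaller than the spread between replicates. The procedure was tested on simulated data. DESeq2 1.42.0, limma 3.58.1 on log2(FPKM + 1) or log2(FPKM + 0.1), other scalings and filters, and leaving out each sample were the alternatives.

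The members and lists were chosen with earlier results of these data known. All 45 members are described by role. Levels in every sample are given for the member of each role with the highest mean FPKM and for those whose call went against most members, and from the other lists the genes with the largest rise or fall and those called against most of their list are named. Levels of further members, and Orc2 to Orc5, E2f1, Rrm2b, Lyz2, Tfrc, Hbb-bs and Hbb-bt, were added after their values were seen.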

Additional observations from a re-analysis of the deposited data

Results flagged for a closer look

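The effect of metformin differed with and without FK506 for 17 of the 45 members, by edgeR's interaction test, 9 toward a higher value (22.5% of all genes) and 8 toward a lower one (24.0% of all genes), so the count is not above the background and says nothing particular about the members. The values that follow are the metformin log2 fold change with FK506 minus that without it. Metformin gave the lower value with FK506 for Pole (-0.69), Gins1 (-0.67), Mcm10 (-0.54), Tk1 (-0.49), Cdc45 (-0.37), Prim1 (-0.27), Mcm5 (-0.18) and Rpa1 (-0.13). It gave the higher value with FK506 for Rfc3 (0.82), Pold2 (0.47), Pcna (0.38), Rrm1 (0.33), Mcm7 (0.31), Fen1 (0.27), Prim2 (0.25), Rnaseh2a (0.22) and Pold1 (0.14). Of these calls, those of Prim2 and Rnaseh2a were lost in 15 of 21 alternative fits each, that of Rpa1 in 10, that of Pold1 in 9 and that of Fen1 in 5. Prim2, Rnaseh2a and Rpa1 were among those lost with the replicate block. All 10 B cell markers were lower with both drugs than with FK506 alone, while of the 10 myeloid markers 3 were higher and 1, Lyz2, was lower, and their part in these differences was not tested.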

How the results depend on the processing

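Of 215 member calls recomputed under 22 alternatives (21 for the 17 interaction calls, which use all groups), 4611 of 4713 values kept direction and side of the threshold, 100 kept the direction and lost the threshold, and 2 reversed: Gins4 with FK506 scaled to T cell markers (0.017) and Mcm6 with metformin under quantile-normalized limma (0.051). Requiring at least 1 log2 unit left 1 member lowered by metformin, 1 lowered and 0 raised by metformin on top of FK506, 0 raised by FK506 or by both drugs against Control or metformin, and 0 and 0 in the interaction. The rise of Rnaseh2a with metformin on top of FK506 was lost in 19 of 22, giving 0 under DESeq2 size factors, T cell marker scaling, DESeq2, no filter, limma on FPKM, a fit of only the groups compared and the replicate block. Quantile-normalized limma raised 1 member with metformin and kept 27 of the 32 falls, losing Mcm4, Mcm5 (adjusted p = 0.0736), Rfc1 (0.120) and Rpa3 (0.0914) beside the reversal of Mcm6, and limma on log2(FPKM + 0.1) lost Mcm10 (0.0586). Interaction calls toward a higher value numbered 5 with T cell marker scaling and with limma on log2(FPKM + 0.1). With T cell marker scaling 2574 of all genes were higher in the interaction and 4548 lower, instead of 3415 and 3649. With 1 sample left out, FK506 lowered 43 and raised 2 throughout, metformin lowered 30 to 33 and raised 0, metformin on top of FK506 lowered 29 to 31 and raised 0 to 1, and the interaction had 6 to 10 higher and 7 to 11 lower. Same-numbered samples did not pair (r of deviations -0.086 to 0.054 over 18 pairs), and the replicate block gave 43 lower and 2 higher with FK506, 32 lower with metformin and 7 in each direction of the interaction. The causes were not tested. Depth limits Orc1 most, which had 65 reads in its lowest sample.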
